A study of Rattus norvegicus with 8 samples.

Results

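Nnt, Pdzrn3, Arxes1 and Zcrb1 are 4 genes that are not in common use as growth plate markers. Their array signal was lower in the hypertrophic zone of the rat femur growth plate than elsewhere, though that of Zcrb1 was still mid-range there. They were chosen by name for that lower signal, with earlier results of these arrays known. Every probe set that the platform annotation ties to exactly 1 of them was taken. This gave 4 of 14217 genes and 4 of 31042 analysed probe sets, 1 per gene, so no gene had a second probe set to set beside the first. The growth plate is the cartilage layer through which a long bone lengthens. Per the labels it was divided into a hypertrophic, a perichondral, a proliferative and a reserve zone of Rattus norvegicus femur, with total RNA on 1 array at 46 days and 1 array at 42 days of age for each zone. Each of the 8 arrays carried RNA pooled from 3 rats. Both ages of a zone were treated as its 2 replicates, following the design text, and no treatment or genotype is stated. The sources used here do not give the method of separating zones, nor whether 1 set of rats supplied all zones.

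Nnt encodes the nicotinamide nucleotide transhydrogenase of the mitochondrial inner membrane, which uses the proton gradient to make NADPH from NADH and so feeds the enzymes that remove peroxides. Pdzrn3 encodes a RING-type ubiquitin ligase with PDZ domains, known in mouse for acting on the muscle receptor kinase MuSK and on Dishevelled, a cytoplasmic carrier of Wnt signals. Arxes1 is an X-linked gene described in mouse fat cells as a target of the receptor PPARG, and it derives from a retrotransposed copy of Spcs3, a subunit of the signal peptidase that trims new secretory proteins. Zcrb1 encodes an RNA-binding protein of the minor spliceosome, the machinery that removes a rare class of introns.

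The RefSeq promoter windows of the 4 genes (build GRCr8) are shown because their signals were all lowest in the same zone. Each window runs 5′ to 3′ on the gene's own strand from 250 bases before to 50 bases after the annotated start. They lie at chr2:53237261-53237560 on the minus strand for Nnt, chr4:135553245-135553544 on the minus strand for Pdzrn3, chrX:103741907-103742206 on the plus strand for Arxes1 and chr7:126417963-126418262 on the minus strand for Zcrb1. Capitals mark letters matching CCAAT, the GC box GGGCGG or the SOX core ACAAAG on either strand.
Nnt: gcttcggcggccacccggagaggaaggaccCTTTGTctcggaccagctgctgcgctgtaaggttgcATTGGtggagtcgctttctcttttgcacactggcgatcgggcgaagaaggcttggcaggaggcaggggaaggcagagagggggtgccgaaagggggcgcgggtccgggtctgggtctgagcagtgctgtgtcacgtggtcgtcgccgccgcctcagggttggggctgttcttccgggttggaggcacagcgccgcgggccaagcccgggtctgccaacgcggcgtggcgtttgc
Pdzrn3: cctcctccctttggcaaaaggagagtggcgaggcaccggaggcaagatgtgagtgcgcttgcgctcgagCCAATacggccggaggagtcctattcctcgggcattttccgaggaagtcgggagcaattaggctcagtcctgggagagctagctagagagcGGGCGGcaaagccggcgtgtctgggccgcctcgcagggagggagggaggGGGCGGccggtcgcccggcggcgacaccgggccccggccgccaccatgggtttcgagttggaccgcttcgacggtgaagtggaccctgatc
Arxes1: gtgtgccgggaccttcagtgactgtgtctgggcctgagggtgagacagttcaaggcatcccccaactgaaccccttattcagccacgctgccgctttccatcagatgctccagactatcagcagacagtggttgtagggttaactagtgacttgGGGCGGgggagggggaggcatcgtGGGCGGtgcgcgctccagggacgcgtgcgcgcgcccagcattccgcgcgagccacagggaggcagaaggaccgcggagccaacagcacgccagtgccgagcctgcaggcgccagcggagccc
Zcrb1: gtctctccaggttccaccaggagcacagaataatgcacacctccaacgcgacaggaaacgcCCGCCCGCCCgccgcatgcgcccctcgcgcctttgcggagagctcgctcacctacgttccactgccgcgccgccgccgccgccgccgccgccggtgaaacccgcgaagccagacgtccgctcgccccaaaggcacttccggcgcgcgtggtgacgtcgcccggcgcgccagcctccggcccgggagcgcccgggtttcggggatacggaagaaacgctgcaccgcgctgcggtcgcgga

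All 4 windows are rich in G and C, at 67.0% for Nnt, 66.7% for Pdzrn3, 65.3% for Arxes1 and 72.3% for Zcrb1, where the median of 33469 rat promoter windows is 51.7%. The GC box occurs 2 times each in the Pdzrn3, Arxes1 and Zcrb1 windows and not in that of Nnt, and 33.1% of all windows hold it. The matches in the Zcrb1 window overlap each other. CCAAT occurs in the Nnt and Pdzrn3 windows (37.5% of all windows), and ACAAAG in the Nnt window alone (18.8% of all windows). TATAAA (14.2%), the RUNX core ACCACA (17.3%) and the direct repeat bound by nuclear receptors such as PPARG (0.1%) match in none of the 4 windows. No searched motif was therefore shared by all 4. Such matches are letters in a window and do not show binding.

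The zone labels were set against marker genes. Col2a1, the main cartilage collagen, was far above the background yardstick on every array, with 39132 as its lowest deposited intensity. Col10a1, a collagen made by hypertrophic chondrocytes, had 27994 and 169191 in hypertrophic arrays at 46 and 42 days, against 1708 to 17011 in the other 6 arrays. The 8 measured genes of the hypertrophic chondrocyte list did not all order the zones so. Their summed intensity was 46417 and 266564 in hypertrophic arrays at 46 and 42 days, against 52489 and 76378 in reserve arrays and 5355 to 31910 in the rest, so the 46-day hypertrophic array was below both reserve arrays. The normalized means of Mmp13 (14.41 in hypertrophic, 14.74 in reserve), Ibsp (14.07 and 14.42) and Spp1 (9.02 and 9.53) were higher in reserve arrays. That of Vegfa was lowest in hypertrophic arrays at 9.28, and that of Panx3 was 10.28 there and highest in proliferative arrays at 10.63. Like Col10a1, Ihh (8.01, against 5.59 to 6.24) and Alpl (9.52, against 8.87 to 9.24) had their highest means in hypertrophic arrays. Unlike Col10a1, both had hypertrophic means under the background yardstick of 9.72. The summed intensity of 8 measured chondrocyte markers was 71682 and 286177 in hypertrophic arrays at 46 and 42 days, against 218320 to 510192 elsewhere, so the 46-day hypertrophic array was the lowest. None of the 8 markers was at 0. Over the top 0.2 of probe sets by brightness, that array correlated more with the 46-day proliferative array (r = 0.735) than with the other hypertrophic array (r = 0.531), as a description across genes. Reserve arrays had the highest summed signal of 7 leukocyte and marrow markers, at 39394 and 43395 at 46 and 42 days, against 1182 to 20223 in the other arrays. The 7 markers included S100a8, whose lowest intensity on any array was 8, and none was at 0. Since each array holds bulk RNA, fewer cells of a type and less RNA per cell cannot be told apart in any result here.

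Nnt was near the bottom of the array in the hypertrophic zone. Its deposited intensity was 30 and 21 in hypertrophic arrays at 46 and 42 days, against 2371 and 3683 in perichondral, 229 and 624 in proliferative and 2590 and 2521 in reserve arrays. Both hypertrophic arrays were below the other 6, and in them only 8.8% and 7.2% of probe sets were dimmer. On the normalized log2(intensity + 16) scale used for every difference here, Nnt averaged 5.28 ± 0.10 (SD, n = 2) in hypertrophic, 11.49 ± 0.32 in perichondral, 8.53 ± 1.19 in proliferative and 11.23 ± 0.16 in reserve arrays. The hypertrophic level was lower by 6.21 (SE 0.74) than the perichondral, a 74-fold difference, by 5.96 than the reserve, 62.1-fold, and by 3.25 than the proliferative, 9.52-fold. The first and second of these differences were the lowest of all 31042 probe sets in their comparison, a rank that was known when the gene was chosen and is no separate evidence.

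Pdzrn3 was likewise dim in the hypertrophic zone and bright in the perichondral and reserve zones. Its intensity was 37 and 53 in hypertrophic arrays at 46 and 42 days, against 1667 and 9459 in perichondral, 876 and 1755 in proliferative and 1538 and 7159 in reserve arrays. The hypertrophic arrays were far below the rest, and within each zone the 46-day array was the lower. The normalized level averaged 5.89 ± 0.48 (SD, n = 2) in hypertrophic, 11.83 ± 1.51 in perichondral, 10.24 ± 0.68 in proliferative and 11.52 ± 1.29 in reserve arrays. Hypertrophic arrays were lower by 5.93 (SE 0.79) than perichondral, 61-fold, by 5.62 than reserve, 49.2-fold, and by 4.35 than proliferative arrays, 20.4-fold. Unlike Nnt, Pdzrn3 was above the background yardstick in both proliferative arrays.

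Arxes1 had its highest zone mean in the perichondral zone. Its intensity was 58 and 70 in hypertrophic arrays at 46 and 42 days, against 1756 and 4335 in perichondral, 526 and 398 in proliferative and 665 and 1736 in reserve arrays. The normalized levels of perichondral and reserve arrays came close, at 10.83 in the 46-day perichondral and 10.64 in the 42-day reserve array. How many probe sets keep all 4 zones apart was not counted, so nothing is read from the separation. The means were 6.33 ± 0.40 (SD, n = 2) in hypertrophic, 11.38 ± 0.78 in perichondral, 8.82 ± 0.08 in proliferative and 10.03 ± 0.86 in reserve arrays. Hypertrophic arrays were lower by 5.05 (SE 0.74) than perichondral, 33.2-fold, by 3.70 than reserve, 13-fold, and by 2.49 than proliferative arrays, 5.61-fold. Both proliferative arrays and the 46-day reserve array were below the background yardstick described after the members' values, as the hypertrophic arrays were. The 5.61-fold therefore compares groups that are both below that level.

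Zcrb1 differed from the other members in shape, since its highest zone was the reserve and its hypertrophic signal was mid-range. Its intensity was 248 and 354 in hypertrophic arrays at 46 and 42 days, against 710 and 2291 in perichondral, 864 and 2022 in proliferative and 4562 and 9296 in reserve arrays. In the hypertrophic arrays 41.2% and 57.5% of probe sets were dimmer, so the word "lost" does not describe this gene on these arrays. The means were 8.21 ± 0.45 (SD, n = 2) in hypertrophic, 10.30 ± 1.15 in perichondral, 10.33 ± 0.83 in proliferative and 12.43 ± 0.48 in reserve arrays. Hypertrophic arrays were lower by 4.22 (SE 0.67) than reserve, 18.7-fold, by 2.12 than proliferative, 4.33-fold, and by 2.09 than perichondral arrays, 4.27-fold. The probe set is of the type that Affymetrix marks as matching several transcripts of 1 gene.

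**Figure D1:**
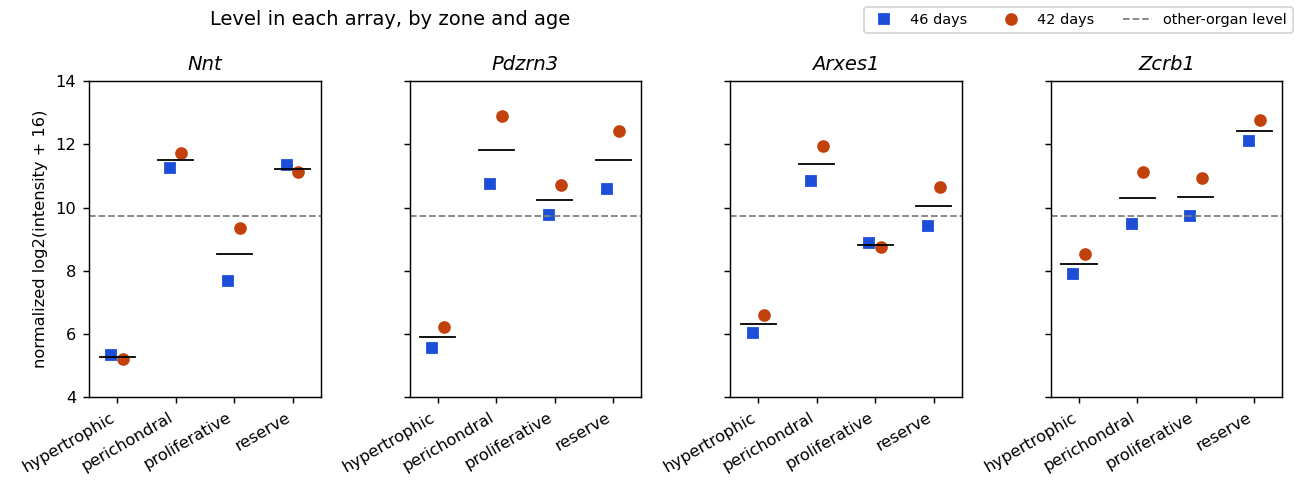
Normalized log2(intensity + 16) of each gene in each of the 8 arrays, by zone, with squares for 46 days, circles for 42 days, black bars for the mean of the 2 arrays and a dashed line at the other-organ level of 9.72. Hypertrophic arrays lie between 5.21 and 6.61 for Nnt, Pdzrn3 and Arxes1 and at 7.89 and 8.53 for Zcrb1, below the other 6 arrays in each panel.

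The background yardstick, called the other-organ level here, is the 0.95 quantile of the values of 35 genes typical of organs other than bone, at 9.72. All 4 genes were below it in both hypertrophic arrays. For Nnt, Pdzrn3 and Arxes1 the depth of each fold there rests on dim values and the true ratio is uncertain. The Zcrb1 values there were mid-range, and with 2 arrays per zone its ratio is uncertain too. For 4 of 4 members both hypertrophic arrays lay below the other 6, as did 3.93% of all 31042 probe sets, but the members were chosen for this and nothing is read from the count. The comparisons with the hypertrophic zone called 0.0290% of all probe sets against perichondral, 0.0226% against reserve and 0.0129% against proliferative arrays at an adjusted p of 0.05 with limma. Without the 46-day hypertrophic array, which stood apart above, the difference from perichondral arrays was -6.33 for Nnt, -5.65 for Pdzrn3, -4.81 for Arxes1 and -1.80 for Zcrb1. The perichondral arrays mattered more for Pdzrn3, at -4.84 without the 42-day and -7.01 without the 46-day one, and for Zcrb1, at -1.27 and -2.92. Against reserve arrays Pdzrn3 was at -4.65 without the 42-day and -6.55 without the 46-day reserve array, and Arxes1 at -3.07 and -4.34. Against proliferative arrays Nnt was at -2.41 without the 42-day and -4.10 without the 46-day proliferative array, and Zcrb1 at -1.52 and -2.77. The summed intensity of 4 measured markers of resting chondrocytes was 1255 and 1375 in hypertrophic arrays at 46 and 42 days, against 5905 to 78476 in the others. Most of the sum in the other 6 arrays was Ucma, which was at 693 and 547 in hypertrophic arrays at 46 and 42 days. The zone mean was lowest in hypertrophic arrays for Ucma (9.27, against 13.54 to 15.39) and Sfrp5 (5.28, against 6.65 to 8.53). It was also lowest there for Sfrp1 (8.79, against 9.68 to 11.38). Grem1 was the exception, at 6.81 in hypertrophic and 6.77 in perichondral arrays. The list's median level was 6.91 and 8.69 in hypertrophic arrays at 46 and 42 days, against 8.21 to 10.30 in the others, so the groups overlapped. None of those 4 genes was at 0, and their part in the low signals was not tested. The chondrocyte marker sum was also lowest in the 46-day hypertrophic array, and its part in the low signals was not tested. Of the 8 markers 7 were above the other-organ level in each hypertrophic array, against 7 or 8 in the other arrays. For Gapdh, the array's control for RNA integrity, 3′ over 5′ signal was 3.63 and 4.30 in hypertrophic arrays at 46 and 42 days, against 3.78 to 8.15 in the others.

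Comparisons among the 3 other zones do not include the hypertrophic mean in the difference. The hypertrophic arrays were still part of the normalization and of the fit that gave each SE, interval and p. The arrays that are compared are those the hypertrophic signal was set against, and all results were known when the genes were chosen. High values in these arrays helped to set the drops used for the choice. The members' intervals and p-values among these zones therefore describe the arrays and are no independent test. None of the 4 members passed an adjusted p of 0.05 with limma in any comparison among these zones. Between proliferative and reserve arrays 0.0226% of all probe sets passed, and between perichondral and reserve and between perichondral and proliferative arrays 0% passed. An unadjusted p under 0.05 was found for 2372, 1164 and 1551 of the 31042 probe sets, in the same order. With 2 arrays per zone, a difference had to be very large to pass.

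Among the 3 zones other than the hypertrophic, Nnt was lowest in the proliferative. It was lower by 2.70 (SE 0.74) in proliferative than in reserve arrays (95% interval -4.28 to -1.13, unadjusted p = 0.00211, adjusted p = 0.398 with limma). It was higher by 2.96 in perichondral than in proliferative arrays (1.39 to 4.53, unadjusted p = 0.00102, adjusted p = 0.928). Without the 42-day proliferative array these differences were -3.52 and 3.77, and without the 46-day one -1.91 and 2.18. Both proliferative arrays were below the other-organ level. Perichondral and reserve arrays overlapped, with a difference of 0.25 (interval -1.32 to 1.83), so their order is not settled.

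Zcrb1 was highest in reserve arrays. It was lower by 2.13 (SE 0.67) in perichondral than in reserve arrays (interval -3.55 to -0.71, unadjusted p = 0.00572, adjusted p = 1 with limma). It was lower by 2.11 in proliferative than in reserve arrays (-3.52 to -0.69, unadjusted p = 0.00615, adjusted p = 0.473). The first of these was -2.90 without the 42-day and -1.32 without the 46-day perichondral array. Perichondral and proliferative arrays overlapped, at a difference of -0.02 (-1.44 to 1.40). Both reserve arrays lay above the other 6, a pattern that 4.24% of all probe sets had. Leukocyte and marrow, erythroid and osteoclast markers were also at their highest sums in reserve arrays, with 39394 and 43395, 38257 and 12748, and 8599 and 21572 at 46 and 42 days. In the other 6 arrays those sums were 1182 to 20223 over 7 markers, 1610 to 10930 over 5 and 183 to 5658 over 5. Their part in the Zcrb1 level was not tested.

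Arxes1 was higher in perichondral than in proliferative arrays by 2.56 (SE 0.74; interval 1 to 4.13, unadjusted p = 0.00307, adjusted p = 0.963 with limma). It was higher by 1.35 in perichondral than in reserve arrays (-0.22 to 2.91) and lower by 1.22 in proliferative than in reserve arrays (-2.78 to 0.35), and neither interval left out 0. The first was 0.79 without the 42-day perichondral and 0.73 without the 46-day reserve array, and the second -0.59 without the 42-day and -1.82 without the 46-day reserve array. For Pdzrn3 the differences were 1.58 (-0.09 to 3.25) between perichondral and proliferative, -1.27 (-2.94 to 0.40) between proliferative and reserve and 0.31 (-1.36 to 1.98) between perichondral and reserve arrays. The first was 0.51 without the 42-day and 2.65 without the 46-day perichondral array. The second was -0.35 without the 42-day reserve, -2.18 without the 46-day reserve and -0.82 without the 46-day proliferative array. The Pdzrn3 levels of the last pair of zones overlapped, at -0.74 without the 42-day perichondral and -0.60 without the 46-day reserve array. Both Nnt and Arxes1 had all perichondral and reserve arrays above both proliferative arrays, as did 8.02% of all probe sets, whereas Pdzrn3 and Zcrb1 did not. Summed markers of other tissue had the same order. For 9 fibrous perichondrium genes the sums were 53956 to 145976 in perichondral and reserve arrays. In the proliferative zone they were 5668 at 46 days and 16095 at 42 days. For 6 osteoblast and bone genes, of which Col1a1 is in both lists, the sums were 21261 to 102087 in perichondral and reserve arrays, against 2575 and 3041. The median level of the fibrous list kept this order, at 9.75 to 12.07 against 8.74 and 9.03. That of the bone list did not, at 8.01 in the 42-day perichondral and 8.73 in the 46-day proliferative array. In hypertrophic arrays at 46 and 42 days, where Nnt and Arxes1 were lowest, the sums were 9322 and 220003 for the first list and 8283 and 171018 for the second. None of these genes was at 0, and their part in the order of zones was not tested.

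**Figure D2:**
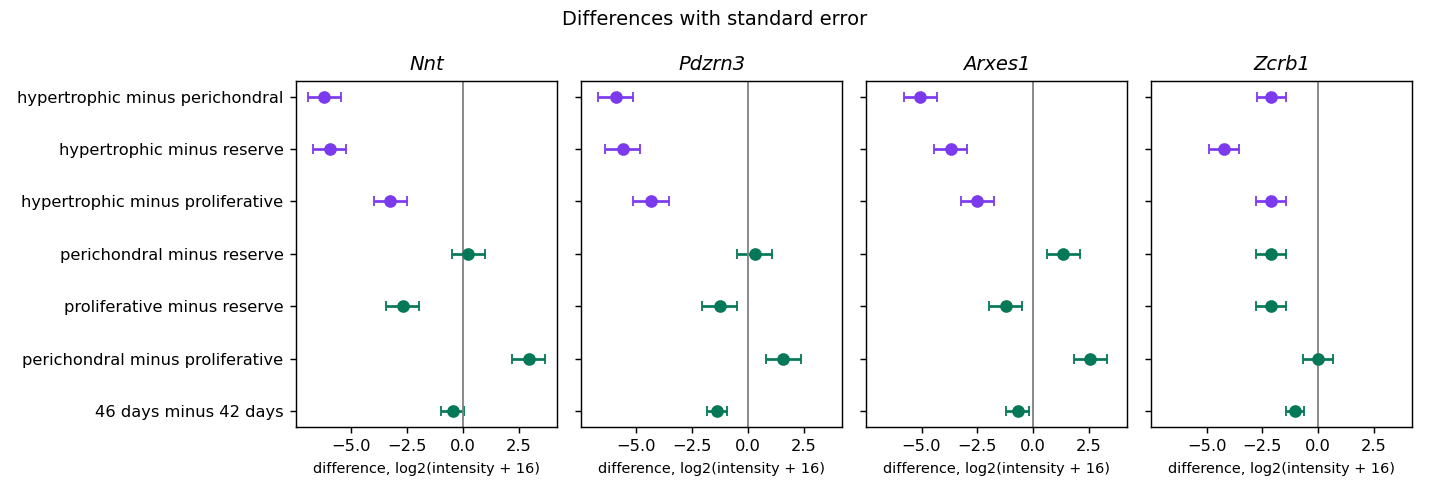
Difference in normalized log2(intensity + 16) for each gene in 7 comparisons, as a point with its standard error from the limma fit to all 8 arrays. Purple points are comparisons with the hypertrophic zone, used to choose the genes, and green points are the others, where Nnt stands at 2.96 and Arxes1 at 2.56 for perichondral minus proliferative.

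The choice of genes rested on zones, not on age. Pdzrn3 was lower at 46 than at 42 days in every zone, with differences of -0.69 in hypertrophic, -2.14 in perichondral, -0.96 in proliferative and -1.83 in reserve arrays. Its mean over zones was 9.17 at 46 days and 10.57 at 42 days, a difference of -1.40 (SE 0.44, interval -2.32 to -0.49, unadjusted p = 0.00459, adjusted p = 0.41 with limma and zone as a covariate). Zcrb1 was also lower at 46 days in every zone, with differences of -0.64 in hypertrophic, -1.62 in perichondral, -1.18 in proliferative and -0.69 in reserve arrays. Its mean difference was -1.03 (SE 0.39, interval -1.86 to -0.21, unadjusted p = 0.0169, adjusted p = 0.512). Neither passed the threshold over all probe sets, where 0% passed with limma and 2616 of 31042 had an unadjusted p under 0.05. A lower 46-day array in all 4 zones was found for 2 of 4 members and for 7.73% of all probe sets.

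Arxes1 differed between ages by -0.69 (SE 0.50, interval -1.75 to 0.36, adjusted p = 0.741 with limma) and Nnt by -0.45 (SE 0.52, interval -1.54 to 0.65, adjusted p = 0.863). The Nnt difference came mainly from the proliferative zone, where it was -1.68, and it was -0.03 without either proliferative array. Other measures moved with age too. The chondrocyte marker sum was lower at 46 than at 42 days in all 4 zones, with 71682 against 286177 in hypertrophic, 330263 against 498675 in perichondral, 218320 against 510192 in proliferative and 239853 against 471011 in reserve arrays. The Gapdh 3′ over 5′ value was lower at 46 days in all 4 zones as well, with 3.63 against 4.30, 3.78 against 4.47, 5.39 against 7.10 and 3.96 against 8.15. Their part in the age differences was not tested.

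Arxes1 has a close relative beside it. In RefSeq's gene order on the X chromosome the next protein-coding gene is Arxes2, and the promoter windows of the pair share an unbroken identical run of 267 bases, whereas the longest run shared with Spcs3 is 11 bases. The Arxes1 and Arxes2 probe sets may pick up each other's RNA, which could not be checked without probe sequences. The promoter windows lie mostly before the annotated start, so their likeness does not settle this. Arxes2 had intensities of 198 and 22 in hypertrophic arrays at 46 and 42 days, against 832 and 975 in perichondral, 471 and 686 in proliferative and 188 and 1107 in reserve arrays. Its low values were in the hypertrophic zone and in the 46-day reserve array, and at 46 days the normalized level was 7.59 in the hypertrophic and 7.63 in the reserve array. The difference between hypertrophic and perichondral arrays was -3.41 (SE 0.99, unadjusted p = 0.00329, adjusted p = 0.62 with limma).

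Spcs3, the parent gene of Arxes1, had another order of zone means. Its intensity was 177 and 373 in hypertrophic arrays at 46 and 42 days, against 518 and 557 in perichondral, 13 and 285 in proliferative and 1883 and 531 in reserve arrays. The low proliferative mean rests on the 46-day array, and proliferative and hypertrophic arrays overlapped, so the order of these zones is not settled. The difference between hypertrophic and perichondral arrays was -1.08 (SE 1.10, adjusted p = 0.909 with limma). Among 6 measured genes of the signal peptidase list, Arxes2 included, 0 passed the threshold between hypertrophic and perichondral arrays, where 0.0492% of 14217 genes passed. Their median difference was -0.83, beside -0.02 over all genes, and 4 of 6 were below 0, where 50.8% of all genes were. Sec11c, a catalytic subunit of the complex, differed by -1.51 (SE 1.11).

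Fat cell genes were looked at because Arxes1 is known from adipocytes. Of 9 measured genes 0 passed in any comparison with the hypertrophic zone, where 0.0492% of all genes passed against perichondral, 0.0422% against reserve and 0.0141% against proliferative arrays. Their median difference between hypertrophic and perichondral arrays was -0.13. The lipid droplet gene Cidec differed by -1.69 (SE 1.23), the lipid droplet coat gene Plin1 by 1.41 (SE 1.17) and the fatty acid carrier Fabp4 by -0.85 (SE 1.27). The summed intensity of the 9 genes was 5287 and 5961 in hypertrophic arrays at 46 and 42 days, against 5634 and 4398 in perichondral arrays, so the zones overlapped. Plin1 was at 9 on its dimmest array and none of the 9 was at 0.

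Among the relatives of Pdzrn3, none passed the threshold between hypertrophic and perichondral arrays. Lnx1, another ubiquitin ligase with PDZ domains, had intensities of 121 and 39 in hypertrophic arrays at 46 and 42 days, against 802 and 938 in perichondral, 100 and 341 in proliferative and 587 and 736 in reserve arrays. Its hypertrophic and proliferative arrays overlapped, and its difference between hypertrophic and perichondral arrays was -3.39 (SE 0.93, unadjusted p = 0.00212, adjusted p = 0.556 with limma). This probe set is of a type that can cross-react with other genes. Lnx2, of the same family, had 929 and 2920 in hypertrophic arrays at 46 and 42 days, against 414 and 403 in perichondral, 739 and 822 in proliferative and 801 and 724 in reserve arrays. Its difference was 1.92 (SE 0.67, adjusted p = 0.712) and Pdzrn4, the nearest relative by name, differed by 0.07 (SE 0.69, adjusted p = 0.993).

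**Figure D3:**
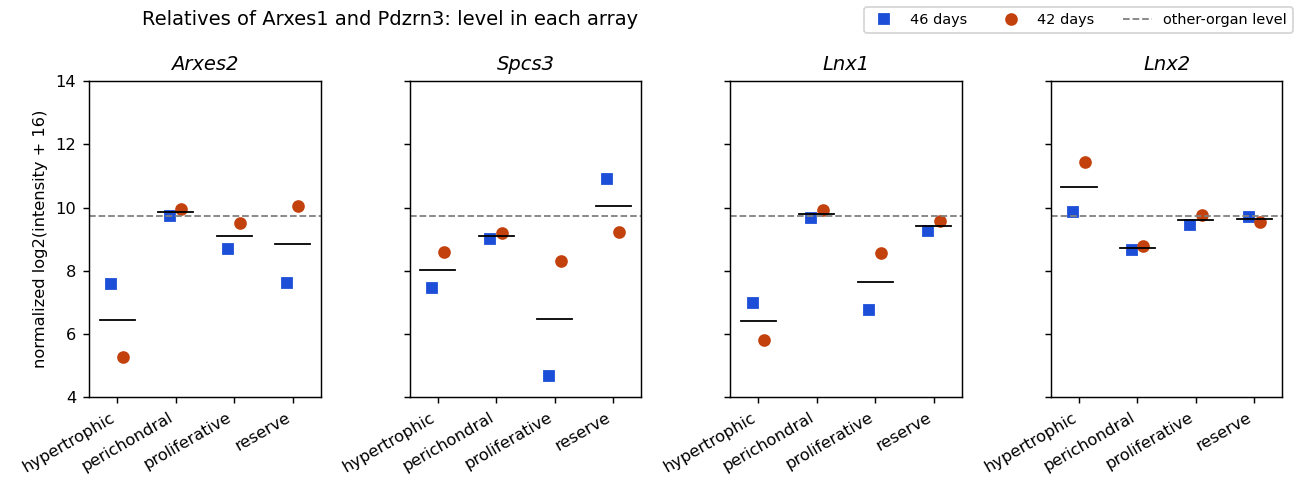
Normalized log2(intensity + 16) of Arxes2, Spcs3, Lnx1 and Lnx2 in each of the 8 arrays, with squares for 46 days, circles for 42 days, bars for zone means and a dashed line at 9.72. Arxes2 and Lnx1 have hypertrophic means of 6.44 and 6.41, against 9.85 and 9.79 in perichondral arrays, while Lnx2 is higher in hypertrophic arrays. The mean of Spcs3 is lowest in proliferative arrays, at 4.68 and 8.30 at 46 and 42 days, which overlap the hypertrophic arrays at 7.45 and 8.61.

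Of the 15 measured genes of the list around Pdzrn3 (its relatives, MuSK and its partners, and Dishevelled and its partners), 0 passed between hypertrophic and any other zone, where 0.0492% of genes passed against perichondral, 0.0422% against reserve (0.0352% lower and 0.00703% higher) and 0.0141% against proliferative arrays. The median difference between hypertrophic and perichondral arrays was 0.07, with 5 of 15 below 0, where 50.8% of all genes were. Dok7, an activator of MuSK, differed by 2.02 (SE 0.99). The skeletal muscle list, followed because Pdzrn3 is known from muscle, summed to 44193 and 59692 over 8 genes in hypertrophic arrays at 46 and 42 days, against 28898 to 51964 in the other arrays. Most of that sum was Myh1, at 26630 to 56640. The muscle actin Acta1 was at 6 on its dimmest array and no listed muscle gene was at 0.

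Genes of mitochondrial NADPH supply and peroxide defence gave no calls. Of 19 measured genes 0 passed in any comparison with the hypertrophic zone, where 0.0492% of all genes passed against perichondral, 0.0422% against reserve and 0.0141% against proliferative arrays. The median difference from perichondral arrays was -0.06, beside -0.02 over all genes. Among them 11 of 19 were below 0, where 50.8% of all genes were. Aldh1l2, a folate enzyme that also makes NADPH in mitochondria, differed by -2.75 (SE 1.20, unadjusted p = 0.0357, adjusted p = 0.787 with limma). Its intensities were 20 and 347 in hypertrophic arrays at 46 and 42 days, against 301 and 1828 in perichondral arrays, so the zones overlapped. Shmt2, its neighbour in that pathway, differed by -1.77 (SE 1.20), while the peroxiredoxin Prdx5 differed by 1.83 (SE 1.28).

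For the minor spliceosome list, 0 of 10 measured genes passed in any comparison with the hypertrophic zone, where 0.0492% of all genes passed against perichondral, 0.0422% against reserve and 0.0141% against proliferative arrays. At such low shares a count of 0 says little about any of these lists. Between hypertrophic and reserve arrays, where Zcrb1 was 4.22 lower, the median difference of the 10 genes was 0.25, beside -0.07 over all genes. Among them 4 of 10 were below 0, where 52.4% of all genes were. Snrnp25, a protein of the same U11/U12 particle, differed by 2.32 (SE 1.19) between hypertrophic and perichondral arrays, with 255 and 217 at 46 and 42 days in hypertrophic arrays, against 55 and 16 in perichondral arrays. Against reserve arrays, at 270 and 320, it differed by -0.51 (SE 1.19). Scnm1 differed by 1.14 (SE 1.13) from perichondral and 1.53 from reserve arrays, and Armc7 by 1.05 (SE 1.13) and 1.12.

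**Figure D4:**
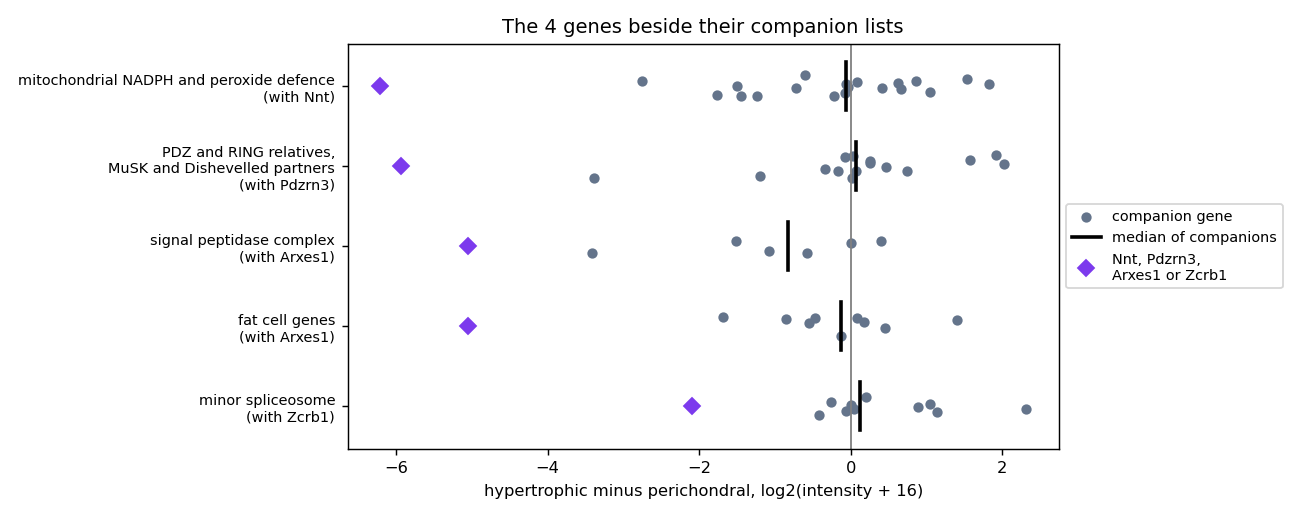
Hypertrophic minus perichondral difference in normalized log2(intensity + 16) for each gene of 5 lists (grey points, with a black bar at the median) and for Nnt, Pdzrn3, Arxes1 or Zcrb1 (purple diamonds). Medians run from -0.83 to 0.13, while the diamonds stand at -6.21, -5.93, -5.05 and -2.09, values that were used to choose those 4 genes.

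Nnt, Pdzrn3 and Arxes1 tracked each other over the 8 arrays, with r from 0.933 to 0.953, and Zcrb1 tracked them less closely, with r from 0.698 to 0.845. The shared hypertrophic drop that chose them enters these values. Over the 6 arrays outside the hypertrophic zone r was 0.826 for Pdzrn3 and Arxes1, 0.760 for Nnt and Arxes1, 0.696 for Nnt and Pdzrn3, and from 0.124 to 0.551 for Zcrb1 with the others. All of these describe the same few arrays and carry no test.

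The genes whose pattern was most like each member were taken by Pearson's r over the 8 arrays. They came from 4143 probe sets with zone means spanning at least 2 on the log2 scale. The hypertrophic drop that chose the members enters every one of these r values. The highest of so many candidates were therefore bound to be high in r and low in hypertrophic arrays. They describe a likeness on these arrays and carry no test. For Nnt they were Usp9x (r = 0.986), a deubiquitinase, Fgfr2 (r = 0.974), a fibroblast growth factor receptor, and Snrpd2 (r = 0.973), a core spliceosome protein. Usp9x had intensities of 1100 and 1040 in hypertrophic arrays at 46 and 42 days, against 1951 to 5719 elsewhere, a much shallower drop than that of Nnt. For Pdzrn3 they were Ucma (r = 0.986), a secreted cartilage protein, Mab21l2 (r = 0.980) and Tusc3 (r = 0.977), a subunit of protein glycosylation. Ucma was at 693 and 547 in hypertrophic arrays at 46 and 42 days, against 31252 and 74497 in perichondral, 4942 and 21836 in proliferative and 16995 and 67698 in reserve arrays. It was lower in the 46-day array in each zone except the hypertrophic, whereas Pdzrn3 was lower there too.

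For Arxes1 the nearest patterns were those of Chad (r = 0.969), a cartilage proteoglycan-family protein that binds collagen, Impact (r = 0.965) and again Mab21l2 (r = 0.958). Chad was at 49 in both hypertrophic arrays, against 954 and 2514 in perichondral, 292 and 420 in proliferative and 499 and 2838 in reserve arrays at 46 and 42 days. For Zcrb1 they were Cdr2 (r = 0.969), Ppp2r3c (r = 0.965), a regulatory subunit of protein phosphatase 2A, and Tram1 (r = 0.965), a protein of the channel through which secretory proteins enter the endoplasmic reticulum. Tram1 was at 349 and 869 in hypertrophic arrays at 46 and 42 days, against 3269 and 6128 in reserve arrays, with the other zones between them at 1155 to 2369.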

How the data were processed

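The authors deposited linear array intensities for 31099 probe sets. MAS5, GCOS and RMA are named, without roles, per the submitters' processing notes; RNA was amplified with the Ovation method per the labels. The trimmed mean (share 0.02) was 500.1 or 500.2 on every array. After 57 control probe sets were left out, log2(intensity + 16) was quantile normalized between arrays, since array medians ran from 7.92 to 8.51. One mean per zone was fitted with limma 3.58.1 in R 4.3.3 (trended variances with 4 residual and 12.58 prior degrees of freedom), with Benjamini-Hochberg adjustment over 31042 probe sets and a threshold of 0.05. Age was fitted with zone as a covariate. The test was tested on simulated data. The number of arrays and the dim hypertrophic values limit the precision. No labels say the pools came from separate rats, so p-values measure the spread between arrays.

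Of the probe sets 20826 had 1 gene symbol, 436 several and 9780 none, and symbols were updated through gene identifiers. Companion lists used the brightest probe set of each gene, and named from each list the genes past the threshold, otherwise the 3 with the largest difference between hypertrophic and perichondral arrays, and close relatives of the members. Members and lists were chosen with earlier results of these data known. Ages are shared by all zones, and age as a replicate block was an alternative, not part of the fit above. The 46 minus 42 day differences correlated between zones with r from 0.0225 to 0.0806 across genes. Alternatives changed the normalization, pseudocount, filter, block, samples in the fit and each array.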

Additional observations from a re-analysis of the deposited data

Results flagged for a closer look

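Nnt and Arxes1 did not move the same way with age in every zone. The Nnt difference, 46 minus 42 days, was -0.46 in perichondral and -1.68 in proliferative arrays but 0.22 in reserve and 0.14 in hypertrophic arrays. For Arxes1 it was 0.11 in proliferative arrays, against -1.10 in perichondral, -1.21 in reserve and -0.57 in hypertrophic arrays. With 1 array per zone and age the difference between zones was not tested.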

How the results depend on the processing

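With 2 pools per zone, the limits are those of very few arrays, and hypertrophic values of Nnt, Pdzrn3 and Arxes1 are dim. Under every alternative run, 0 members passed between the non-hypertrophic zones or between ages, and 0 companion genes passed against the hypertrophic zone. With age as a replicate block the member and companion counts also stayed at 0, and adjusted p for Nnt was 0.383 between perichondral and proliferative and 0.206 between proliferative and reserve arrays. Counts over all probe sets were 55 with the block and 9 without between hypertrophic and perichondral, 38 and 7 between hypertrophic and reserve, 11 and 4 between hypertrophic and proliferative, 60 and 7 between proliferative and reserve, 13 and 0 between perichondral and proliferative, and 3 and 0 between perichondral and reserve arrays. Without the 42-day hypertrophic array the hypertrophic and reserve count was 167, and it was 0 without either perichondral array or without the 42-day reserve array. Without the 42-day hypertrophic array 50 passed between hypertrophic and perichondral arrays, and 0 without either perichondral array. Between ages 140 passed with arrays centred on their median and 45 as deposited, against 0. With arrays centred on their median 1 passed against perichondral, 1 against reserve and 0 against proliferative arrays, and with dim probe sets left out 2, 2 and 1. Between proliferative and reserve arrays 14 passed as deposited, 16 with a pseudocount of 64 and 27 with only those zones fitted. Directions turned only for Pdzrn3 between perichondral and reserve arrays (-0.74 to 1.37 with each array left out) and for Zcrb1 between perichondral and proliferative arrays (-0.83 to 0.79 with each array left out, and 0.05 with arrays centred on their median), and the cause was not tested. The hypertrophic differences kept their sign throughout, and for Nnt against perichondral arrays ran from -6.92 with a pseudocount of 1 to -5.07 with 64.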
